A study of Homo sapiens with 9 samples.

Results

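The genes described are 10 of the 26475 gene symbols measured, the core transcription factors and pigment genes of the melanocyte lineage. They were chosen by name and by their known roles, with earlier results of these data known. The 4 factors are MITF, SOX10, PAX3 and TFAP2A, and the 6 pigment genes are TYR, TYRP1, DCT, PMEL, MLANA and the receptor gene MC1R. All of them have a row in the deposited table. The study exposed A375, a human melanoma line with a BRAF mutation, for 24 h to TP-472 at 5 µM, to TP-472 at 10 µM or to the solvent DMSO, and sequenced 3 libraries of each group. TP-472 is a chemical probe that blocks BRD9 and BRD7, proteins of chromatin remodelling complexes that bind acetylated histones. The same line, grown in the same serum-containing medium, underlies every library, so that the values describe 1 line and not melanoma cells in general. Each dose was compared with DMSO and the doses with each other.

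Melanocytes arise from the neural crest. PAX3 and SOX10 switch on MITF, which in turn drives the genes of pigment synthesis through short E-box elements in their promoters, and TFAP2A acts beside MITF at many of these genes. TYR, TYRP1 and DCT encode the enzymes that make melanin, PMEL forms the fibrils on which melanin is laid down, MLANA is a melanosome protein known as a melanoma antigen, and MC1R is the receptor for melanocyte-stimulating hormone. MITF RNA comes from several promoters, of which 1 is used mainly in pigment cells, and the deposited values add all forms of a gene together.

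The E-box matches near the start of the pigment genes are shown first, because they are the letters through which MITF is known to act on these genes. Promoter sequences of 8 of the 10 genes were found in RefSeq (GRCh38.p14), with 1 start per gene, and the 250 bases before each start were searched on both strands. The core of the M-box, TCATGTG, was present in 2 of the 8 windows, those of TYR and TYRP1, and in 2.58% of 27305 promoters of the same length. The shorter E-box CATGTG, which the M-box core contains, was present in 3 of the 8 windows, those of TYR, TYRP1 and MC1R, and in 9.54% of all promoters. Each line gives 30 bases of the plus strand, which is the coding strand of these genes, with the match in capitals. TYRP1 holds its second match as CACATG, which reads CATGTG on the other strand.
TYR, chr11:89177759-89177788, match from position -105 before the start: agaaaagtcagTCATGTGcttttcagagga
TYR, chr11:89177845-89177874, match from position -12: tataggtctcagccaagaCATGTGataatc
TYRP1, chr9:12693229-12693258, match from position -145: ttggaagggaaTCATGTGctgatcaagtcc
TYRP1, chr9:12693355-12693384, match from position -11: taattatcaggcagcaatcCACATGcactt
MC1R, chr16:89918786-89918815, match from position -64: tcacgcccccggCATGTGgccgccctcagt
In GENCODE release 29, in which some transcripts of these genes start further upstream, the windows of TYR and MC1R and the second window of TYRP1 lie in an exon of the gene, and the first window of TYRP1 does not. The palindromic E-box CACGTG was in none of the 8 windows and in 6.49% of all promoters. A SOX-type match, ACAATG, was in the MITF window at position -214, against 9.45% of all promoters, and ACAAAG was in none of the 8, against 13.7%. Whether the MITF window is that of the promoter used mainly in pigment cells was not examined. The TGACG letters of a cAMP response element were in the MLANA window at position -86, against 21.7% of all promoters. A match describes letters in a window and is no evidence of binding.

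The libraries held 42483091 to 51298130 expected counts each, so that 3 counts, the level taken as the floor of detection, correspond to 0.0585 to 0.0706 counts per 1000000 counts of the library (CPM). The share of counts from ribosomal RNA genes spanned 8.79% to 10.9% (DMSO libraries), 10.6% to 16.6% (5 µM) and 8.20% to 19.9% (10 µM), and with these genes left out no call among the 10 genes was different. Replicate 1 at 10 µM stood apart: the SD over genes of its log2 difference from the mean of the other libraries of its group was 0.575, against 0.380 and 0.396 for replicates 2 and 3, 0.255 to 0.296 at 5 µM and 0.184 to 0.197 in DMSO. Results that change without it are given both ways. CPM values are scaled to library size by TMM, and a gene was called changed at an adjusted p under 0.05 in the edgeR quasi-likelihood test.

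A375 cells given DMSO alone carried the factors of the lineage and little or no RNA of its pigment enzymes. SOX10 was among the most abundant RNAs, MITF, MC1R, TFAP2A and PAX3 were at moderate levels, PMEL, TYRP1 and MLANA were low, and TYR and DCT had no counts in any DMSO library. For a comparison between genes, CPM was divided by the exon length of each gene in kilobases (GENCODE release 29). This length joins the exons of all transcripts of a gene, and was 7181 bases for MITF and 3710 bases for SOX10. The levels, their ratios and their order depend on it, and lengths of single transcripts were not tried. SOX10 (chr22:37970686-37987422, minus strand) had a level of 112 ± 2.96 CPM per kilobase in DMSO (SD, n = 3), which is at percentile 98.9 of the 23900 genes with a length. MITF (chr3:69739435-69968337, plus strand) followed at 4.45 ± 0.249 CPM per kilobase, at percentile 70.2. The SOX10 mean was 25.2 times that of MITF. MC1R (chr16:89912119-89920977, plus strand) had 3.62 ± 0.152 CPM per kilobase, at percentile 67.2. TFAP2A (chr6:10393186-10419659, minus strand) had 1.97 ± 0.0337 and PAX3 (chr2:222199888-222298996, minus strand) 1.30 ± 0.190 CPM per kilobase, at percentiles 60.2 and 56.4. These 5 genes thus lay above the middle of the 23900 genes with a length, of which 5592 were at 0 in all DMSO libraries.

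The genes of the melanosome itself came below them. PMEL (chr12:55954105-55973317, minus strand) had 0.380 ± 0.0274 CPM per kilobase, at percentile 47.7. TYRP1 (chr9:12685439-12710290, plus strand) had 0.0886 ± 0.0282 and MLANA (chr9:5890802-5910606, plus strand) 0.0560 ± 0.0116 CPM per kilobase, at percentiles 39.4 and 36.9. Neighbours in this order did not overlap between their 3 DMSO libraries, with the narrowest gap between TYRP1, whose lowest library had 0.0695, and MLANA, whose highest had 0.0690 CPM per kilobase. TYR (chr11:89177452-89295759, plus strand) and DCT (chr13:94436808-94479682, minus strand) were at 0 counts in every DMSO library, as were 5592 of the 23900 genes, 23.4%. A count of 0 in a library allows a level of up to the floor given above, which covers counting error only.

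**Figure D1:**
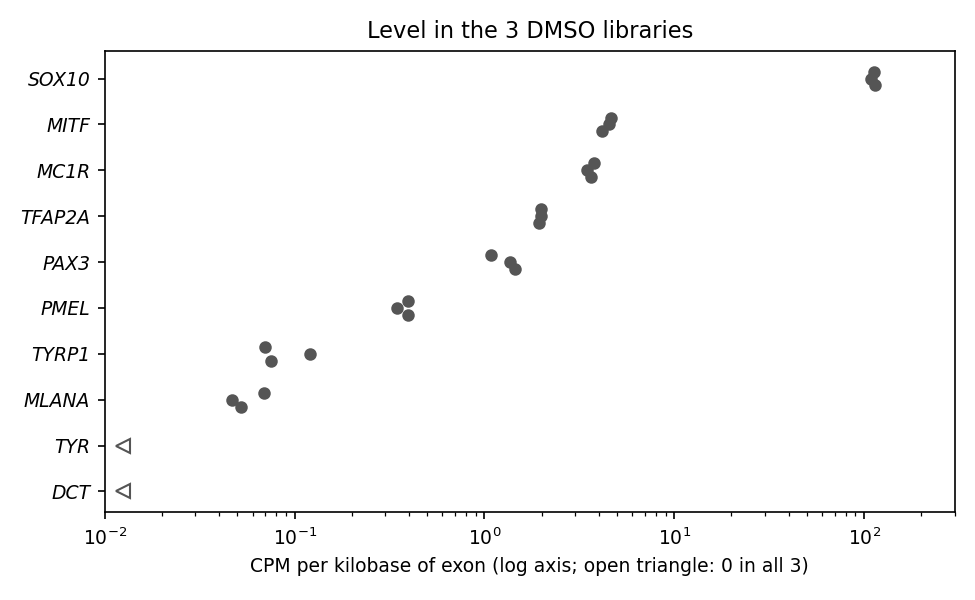
Level of the 10 genes in the 3 DMSO libraries, in CPM per kilobase of exon on a log axis, with 1 point per library and an open triangle for genes at 0 in all 3. SOX10 stands far to the right at 112, MITF to PAX3 lie between 4.45 and 1.30, and PMEL, TYRP1 and MLANA lie below 0.5.

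TP-472 treatment left most of these genes within the spread between libraries. At 5 µM, 0 of the 8 genes with enough counts for the test changed against DMSO, where 10.2% of all 16417 genes tested did. Without replicate 1 at 10 µM, TFAP2A passed at 5 µM (adjusted p = 0.0461), in a fit where 16.5% of all genes rose and 17.6% fell. At 10 µM, TFAP2A was upregulated and MC1R downregulated, and the other 6 did not pass the test, where 34.3% of all genes passed. Between the doses TFAP2A alone of the 8 passed, with a higher level at 10 µM, where 8.4% of all genes passed. No change of a gene that passed reached 1.5-fold, a size that 19.1% of all genes passed with at 10 µM. TYR and DCT were not tested because of their counts.

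For the 0 calls at 5 µM, edgeR's quasi-likelihood test had 1 gene at an unadjusted p under 0.05, which was TFAP2A and compares with 24.4% of all genes. DESeq2 and limma-voom also made 0 calls with 1 gene at an unadjusted p under 0.05, and the edgeR likelihood ratio test made 0 calls with none. The groups of libraries did not overlap for 2 of the 8 genes at 5 µM against DMSO (TFAP2A higher and MC1R lower) and for the same pair at 10 µM against DMSO, against 48.7% and 49.3% of all genes. Between the doses they did not overlap for TFAP2A alone, against 28.3%. The median size of the log2 fold change over the 8 genes was 0.11 at 5 µM, 0.34 at 10 µM and 0.11 between the doses, beside 0.21, 0.35 and 0.23 over all genes tested. The comparisons at 5 µM and 10 µM share their DMSO libraries and are not independent of each other.

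**Figure D2:**
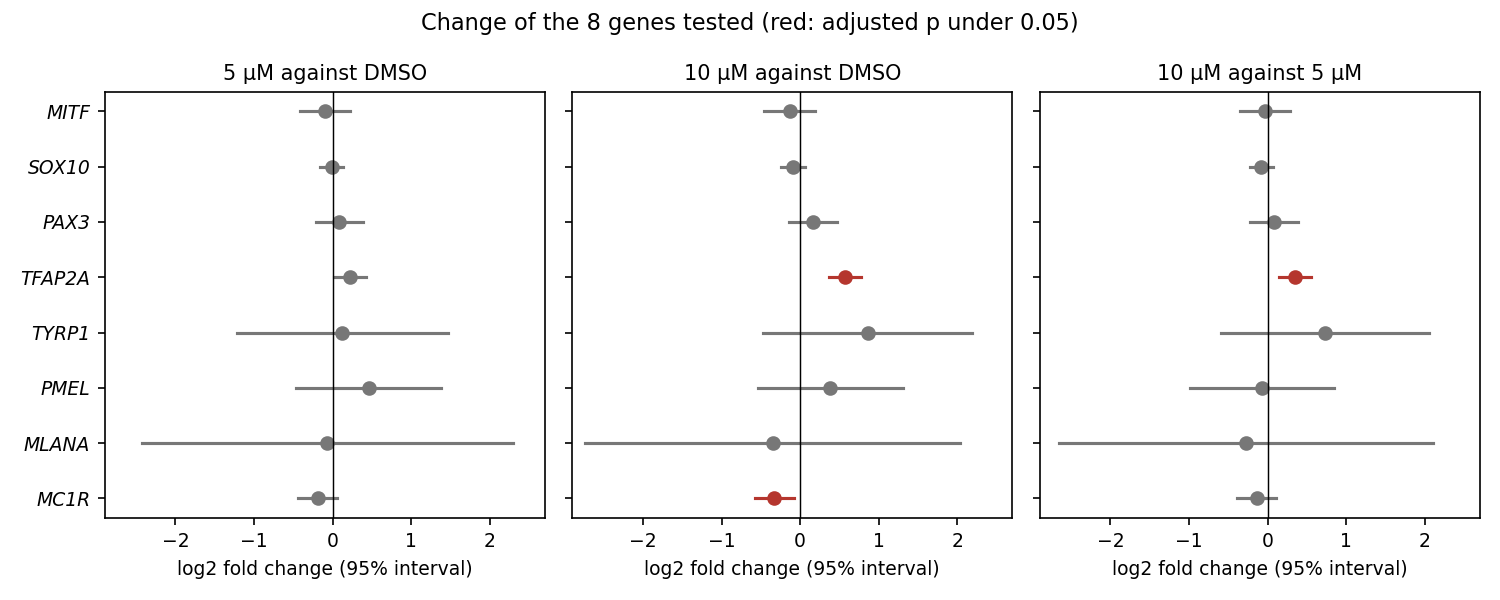
Log2 fold change with its 95% interval for the 8 genes tested, in 3 panels (each dose against DMSO, then the doses against each other), with genes that passed the test in red. TFAP2A is red and right of 0 at 10 µM against both other groups, MC1R is red and left of 0 at 10 µM against DMSO, and the widest intervals belong to MLANA, TYRP1 and PMEL.

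SOX10, the factor that defines the neural crest and its pigment cells, stayed close to its DMSO level. It had 426, 404 and 420 CPM in DMSO, 413, 420 and 405 CPM at 5 µM, and 411, 399 and 363 CPM at 10 µM. Replicates 2 and 3 at 10 µM lay below the lowest DMSO library, replicate 1 lay inside the DMSO range, and the groups overlapped. The fold change was 0.991 at 5 µM (95% interval 0.893 to 1.10, adjusted p = 0.941) and 0.939 at 10 µM (0.846 to 1.04, adjusted p = 0.333). With at least 17752 counts in each library SOX10 had the smallest variation of the 8 genes, a biological coefficient of variation of 7.54% against a median of 14.2% over all genes. Without replicate 1 at 10 µM the log2 fold change was -0.13 with an adjusted p of 0.0149 at 10 µM against DMSO, and the adjusted p between the doses was 0.0480, so that the call depends on that library. POLR2F, which covers 2.40% of the exon length of SOX10 on the opposite strand, rose at 10 µM by a log2 fold change of 0.57 (adjusted p = 0.0419). Much of this came from replicate 1, with 8959 counts against 5321 and 5485 in replicates 2 and 3. The DMSO libraries had 4835, 4300 and 3512 counts of POLR2F.

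MITF, which drives the pigment genes and melanocyte survival, was measured at 29.9, 32.7 and 33.3 CPM in DMSO. At 5 µM its libraries had 26.8, 30.7 and 31.9 CPM. At 10 µM they spread from 23.3 in replicate 1 through 28.1 in replicate 3 to 35.9 CPM in replicate 2, a range that takes in every DMSO library. The fold change was 0.933 at 5 µM (95% interval 0.747 to 1.17, adjusted p = 0.754) and 0.911 at 10 µM (0.729 to 1.14, adjusted p = 0.512). The log2 fold change at 10 µM, -0.13 with all libraries, was -0.32 without replicate 2 (adjusted p = 0.0659) and -0.00046 without replicate 1 (adjusted p = 0.998), so that its size rested on single libraries.

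PAX3, which acts above MITF in the neural crest, had 11.6, 10.8 and 8.63 CPM in DMSO. It had 10.4, 10.1 and 12.4 CPM at 5 µM and 11.4, 11.0 and 12.3 CPM at 10 µM. The groups overlapped, and the lowest value of all was a DMSO library. The fold change was 1.06 at 5 µM (95% interval 0.861 to 1.31, adjusted p = 0.774) and 1.12 at 10 µM (0.910 to 1.38, adjusted p = 0.381).

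TFAP2A, the AP-2 factor that works with MITF in pigment cells and also shapes neural crest and skin, was the 1 factor that rose. It had 16.0, 16.5 and 16.5 CPM in DMSO, 17.3, 19.4 and 20.5 CPM at 5 µM, and 24.1, 25.7 and 22.7 CPM at 10 µM. All 3 groups were separate, with 10 µM highest and DMSO lowest. The fold change at 10 µM was 1.48 (95% interval 1.29 to 1.71), a log2 fold change of 0.57 (SE 0.09, n = 3 and 3, adjusted p = 0.00118). At 5 µM it was 1.17 (1.01 to 1.35, log2 0.22, SE 0.09), which did not pass (adjusted p = 0.165). Between the doses the log2 difference was 0.34 (SE 0.09, adjusted p = 0.0476), just inside the threshold. The rise at 10 µM had an adjusted p under 0.05 in all 20 alternative fits, although its fold of 1.48 misses a threshold of 1.5-fold, with log2 fold changes of 0.52 to 0.61 and adjusted p of 2.88e-07 to 0.00945, whereas the difference between the doses no longer passed in 10 of 20. RNA was taken from whole cultures, in which a change in the share of cells of a type and a change in RNA per cell cannot be told apart.

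Part of the TFAP2A locus is read on both strands, with antisense genes over 16.7% of its exon length. Its expected counts were whole numbers in 1 of 9 libraries, while its sum with the antisense gene TFAP2A-AS1 was whole in 9 of 9 (within 0.011 counts), which is what reads shared out between the pair give. TFAP2A-AS1 made up 1.87% to 7.17% of that sum, and with both added together the log2 fold change was 0.53 at 10 µM (adjusted p = 0.00131) and 0.35 between the doses (adjusted p = 0.0399).

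MC1R, through which melanocyte-stimulating hormone raises cAMP and MITF, was the 1 gene that fell. It had 20.2, 19.3 and 21.0 CPM in DMSO, 16.5, 18.6 and 18.0 CPM at 5 µM, and 18.5, 14.3 and 15.3 CPM at 10 µM. Every treated library was below every DMSO library, and the treated groups overlapped each other. The fold change was 0.796 at 10 µM (95% interval 0.671 to 0.944), a log2 fold change of -0.33 (SE 0.11, n = 3 and 3, adjusted p = 0.0424). At 5 µM it was 0.876 (0.740 to 1.04, log2 -0.19, SE 0.11), which did not pass (adjusted p = 0.338). The call at 10 µM was near the threshold: it was lost in 12 of 19 alternative analyses, with adjusted p from 0.000559 without replicate 1 at 10 µM to 0.132 without replicate 3 of DMSO, and the direction was the same in all of them. Of the exon length of MC1R, 37.7% is also exon of other genes on the same strand, among them 9.83% in TCF25, whose log2 fold change at 10 µM was -0.17 (adjusted p = 0.244), and 21.4% in a read-through gene that is not in the table.

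Counts of the melanin enzymes stayed low with treatment. TYR, the enzyme of the first step of melanin synthesis, had 0 counts in all 9 libraries, which in each allows at most 0.0585 to 0.0706 CPM. DCT had 1 count in replicate 2 at 10 µM and 0 in the other libraries. TYRP1 had 14, 22 and 11 counts in DMSO, 26, 11 and 15 at 5 µM, and 31, 45 and 15 at 10 µM. Its groups overlapped, with the lowest 10 µM library inside the DMSO range. The fold change of TYRP1 was 1.81 at 10 µM (95% interval 0.722 to 4.56, adjusted p = 0.302) and 1.09 at 5 µM (0.430 to 2.77, adjusted p = 0.935). At these counts and with this spread between libraries, the interval of TYRP1 at 10 µM takes in both a fall and a severalfold rise. A change of the size estimated could thus not be told from none.

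PMEL and MLANA, the melanosome proteins, varied among the replicates more than between the groups. PMEL had 1.55, 1.36 and 1.54 CPM in DMSO, 2.41, 0.968 and 2.73 CPM at 5 µM, and 2.87, 1.5 and 1.43 CPM at 10 µM. In each treated group 1 library sat apart from the other pair, replicate 2 at 5 µM on the low side and replicate 1 at 10 µM on the high side. The PMEL fold change was 1.37 at 5 µM (95% interval 0.725 to 2.60, adjusted p = 0.576) and 1.30 at 10 µM (0.688 to 2.47, adjusted p = 0.517). MLANA had 8, 7 and 9 counts in DMSO, 8, 11 and 5 at 5 µM, and 0, 3 and 17 at 10 µM. The 10 µM libraries of MLANA thus held both the lowest and the highest of the 9 values. Its fold change was 0.784 at 10 µM (95% interval 0.150 to 4.09, adjusted p = 0.836). The biological coefficients of variation were 36.2% for PMEL, 45.3% for TYRP1 and 72.9% for MLANA, against 9.26% for TFAP2A, 10.7% for MC1R, 12.9% for PAX3 and 13.1% for MITF.

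**Figure D3:**
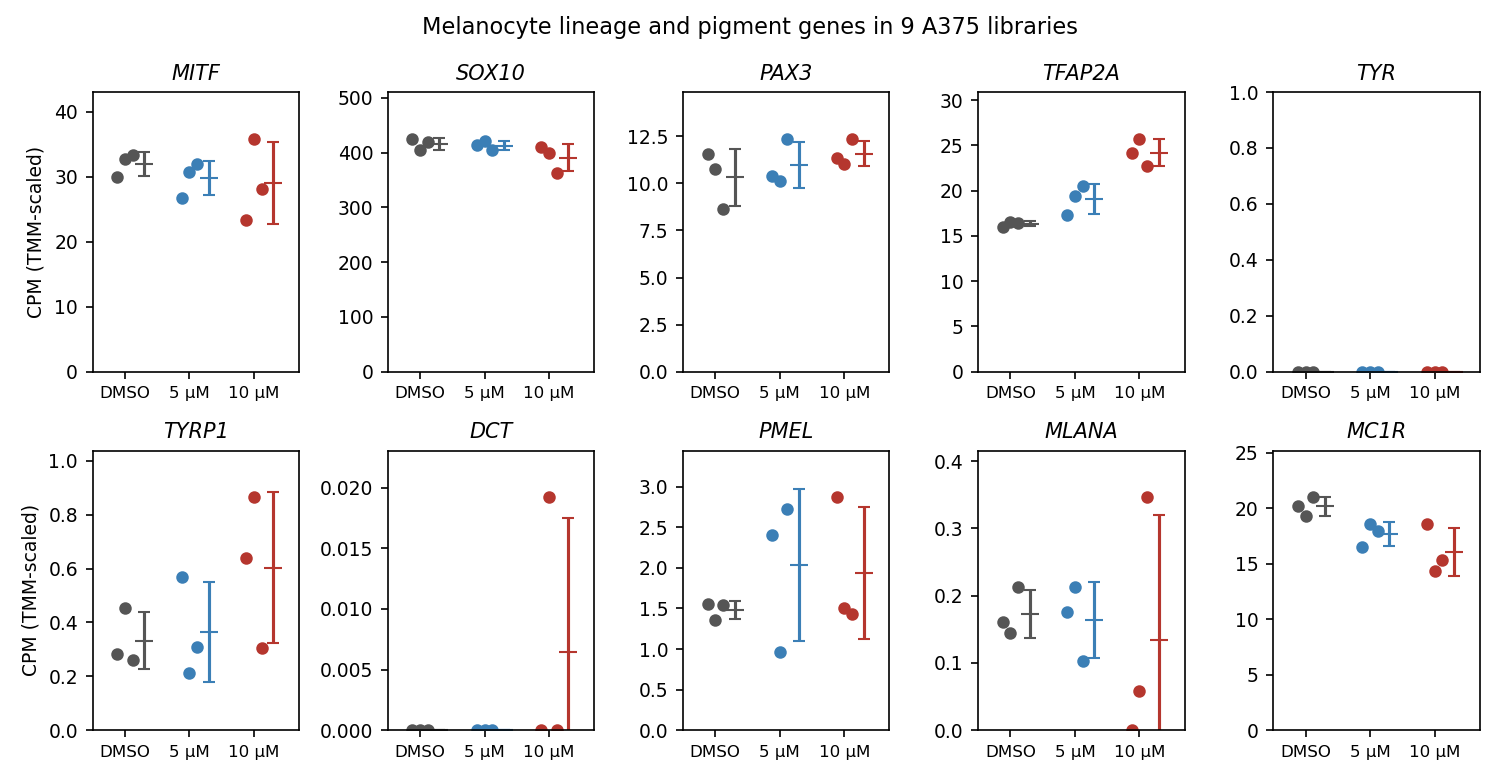
CPM (TMM-scaled, linear axis from 0) of each of the 10 genes in the 9 libraries, with 1 point per library in the order of replicates 1 to 3 and bars for the mean and SD of 3 libraries, cut off at 0. The TFAP2A groups are separate from each other, every treated MC1R library lies below the DMSO libraries, TYR is at 0 throughout, and the single DCT point above 0 is 1 count.

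The genes around these 10 were counted in lists written from general knowledge, with earlier results of these data known. At 10 µM, 16.4% of all genes tested rose and 18% fell. These shares were 23% and 25.8% of 16745 genes when replicate 1 at 10 µM was left out, and list counts without this library are to be read against the latter shares. Among target genes of MITF outside pigment synthesis, 1 of 15 tested rose and 1 fell. GPNMB, a melanosome and lysosome glycoprotein, fell from a mean of 66.7 CPM in DMSO to 57.8 CPM at 10 µM (log2 -0.21, SE 0.07, adjusted p = 0.0424). ASAH1, the acid ceramidase, rose from 31.9 to 44.7 CPM (log2 0.49, SE 0.07, adjusted p = 0.000644). The median log2 fold change of the 15 was -0.05, beside 0.01 over all genes. Their counts were 2 higher and 2 lower without replicate 1 at 10 µM. TRPM1 and IRF4, which depend on MITF in pigment cells, were near 0 in all groups, with means of 0 to 0.0657 CPM.

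Transporters of the melanosome membrane lay at unequal levels, with CLCN7 at 65.8, ATP7A at 18.0 and TPCN2 at 8.36 CPM on average in DMSO. OCA2, SLC45A2, SLC24A5 and GPR143, known from forms of albinism, had DMSO means of 0.149 to 0.309 CPM, and none of these 4 passed the test. The lysosomal chloride transporter CLCN7 was the 1 of 7 that rose at 10 µM (log2 0.31, SE 0.07, adjusted p = 0.00893), and none of the 7 fell.

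Genes that build the melanosome as a lysosome-related organelle were measured at a summed level of 1003.85 to 1078.45 CPM in all libraries of DMSO, 5 µM and 10 µM, and 3 of 20 rose while 1 fell at 10 µM. BLOC1S2, a subunit of the complex that sorts cargo to melanosomes, was upregulated, with 30.6, 33.8 and 32.0 CPM in the DMSO libraries, 59.9, 53.0 and 57.7 CPM at 5 µM, and 96.7, 71.1 and 79.1 CPM at 10 µM. Its 3 groups were separate, with a log2 fold change of 0.82 at 5 µM (adjusted p = 0.00172) and of 1.36 at 10 µM (SE 0.11, adjusted p = 1.94e-05). BLOC1S3, of the same complex, rose by 0.65 (adjusted p = 0.00529) and AP3S1, of the AP-3 adaptor, by 0.30 on the log2 scale (adjusted p = 0.0302). BACE2, the protease that cuts PMEL, fell from 96.2, 103 and 103 CPM in DMSO to 56.3, 64.5 and 62.6 CPM at 10 µM (log2 -0.72, SE 0.08, adjusted p = 8.23e-05), and it also passed at 5 µM (log2 -0.29, adjusted p = 0.0362). Without replicate 1 at 10 µM the counts of this list were 5 higher and 4 lower, beside 23% and 25.8% of all genes.

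Of the 8 genes for the transport of melanosomes along actin and for cargo delivery to them, 3 fell and 1 rose at 10 µM. MLPH (melanophilin), the link between RAB27A and myosin Va, had 23.6, 22.7 and 24.2 CPM in DMSO, 14.2, 17.1 and 13.8 CPM at 5 µM, and 10.8, 9.73 and 7.40 CPM at 10 µM. Its groups were separate, and it fell by 0.64 at 5 µM (adjusted p = 0.0186) and by 1.34 at 10 µM on the log2 scale (SE 0.14, adjusted p = 9.33e-05). RAB27A, the GTPase that tethers melanosomes, fell by 1.02 at 10 µM (SE 0.19, adjusted p = 0.00244), and SYTL2, a RAB27 effector, fell by 0.34 (adjusted p = 0.0150). At 5 µM SYTL2 lay on the other side of DMSO, with 47.6, 47.2 and 46.9 CPM against 38.1, 39.8 and 37.2 CPM, a log2 fold change of 0.30 that did not pass (adjusted p = 0.0610, and 0.000413 without replicate 1 at 10 µM). RAB38, which directs TYR and TYRP1 to melanosomes, rose by 0.50 (adjusted p = 0.0452), with replicate 1 at 31.9 CPM and the other 10 µM libraries at 20.6 and 19.4 CPM. MYO5A, the motor itself, did not pass (log2 -0.30, adjusted p = 0.198). MLPH and RAB27A are also known from MITF regulation in melanocytes, and the MITF values stand above. Without replicate 1 at 10 µM the list had 1 higher and 4 lower.

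Among 20 factors related to the 4 described, 7 fell and 2 rose at 10 µM. SOX9, the sister factor of SOX10, had 31.6, 30.1 and 29.6 CPM in DMSO, 18.6, 16.2 and 16.4 CPM at 5 µM, and 11.2, 13.9 and 14.7 CPM at 10 µM, and it fell by 0.84 and 1.2 on the log2 scale at 5 and 10 µM (adjusted p = 0.00145 and 4.15e-05). SOX5, a partner that modulates SOX10, fell by 1.06 at 10 µM (SE 0.26, adjusted p = 0.012), with replicate 1 at 17.3 CPM below replicates 2 and 3 at 38.8 and 44.1 CPM. LEF1, the Wnt effector at the MITF promoter, fell by 0.94 (adjusted p = 0.000199). ZEB1 fell by 0.67 (adjusted p = 0.0350). TFAP2C, the AP-2 relative of TFAP2A, fell from a mean of 115 CPM to means of 82.8 CPM (5 µM, log2 -0.48, adjusted p = 0.00206) and 86.4 CPM (10 µM, log2 -0.42, adjusted p = 0.00125), and was named after its value was seen. The pair that rose, also named afterwards, was at low levels: SNAI2 had 0.483, 0.412 and 0.402 CPM in DMSO and 2.15, 1.60 and 1.39 CPM at 10 µM, and TFEC, of the MITF family, 0.141, 0.123 and 0.0709 against 0.227, 1.83 and 1.06 CPM. TFE3, the most abundant MITF relative, did not pass (log2 0.17, adjusted p = 0.150). Without replicate 1 at 10 µM the list had 5 higher and 9 lower, where 23% and 25.8% of all genes were.

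Of the ligands and receptors that act on melanocytes, 2 of 8 rose and 1 fell at 10 µM. KITLG, the ligand of KIT, had 2.64, 2.55 and 1.77 CPM in DMSO, 5.52, 7.17 and 4.35 CPM at 5 µM, and 10.9, 10.5 and 12.2 CPM at 10 µM. Its groups were separate, and it rose by 1.29 and 2.27 on the log2 scale (adjusted p = 0.00488 and 4.79e-05). KIT itself was at 0 in the DMSO and 5 µM libraries and at 0, 0.538 and 0.306 CPM at 10 µM, too low for the test. ERBB3 was downregulated, with 213, 219 and 215 CPM in the DMSO libraries, 163, 152 and 169 CPM at 5 µM, and 104, 111 and 106 CPM at 10 µM (log2 -0.42 and -1.01, adjusted p = 0.00387 and 4.86e-06). Its ligand gene NRG1 rose by 0.66 and 0.98 (adjusted p = 0.0138 and 0.000466). POMC, from which the ligand of MC1R is made, had 0 counts in every library, and ASIP, the antagonist of MC1R, had group means of 0.0391 to 0.0979 CPM. Without replicate 1 at 10 µM the list had 3 higher and 2 lower.

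Genes known from melanoma cells with low MITF moved in both directions, with 5 of 14 higher and 6 lower at 10 µM. TGFBI, a matrix protein, fell by 1.01 at 5 µM and 2.13 at 10 µM on the log2 scale (adjusted p = 3.18e-05 and 8.31e-08). CTGF and CYR61, matricellular proteins, rose by 1.88 and 1.5 at 10 µM (adjusted p = 1.41e-07 and 1.44e-06). The receptor genes AXL and NGFR, named after their values were seen, fell by 0.25 and 0.81 at 10 µM (adjusted p = 0.0255 and 0.000524). The median of the list was -0.15, and without replicate 1 at 10 µM the counts were 6 higher and 7 lower, beside the same 23% and 25.8% of all genes.

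**Figure D4:**
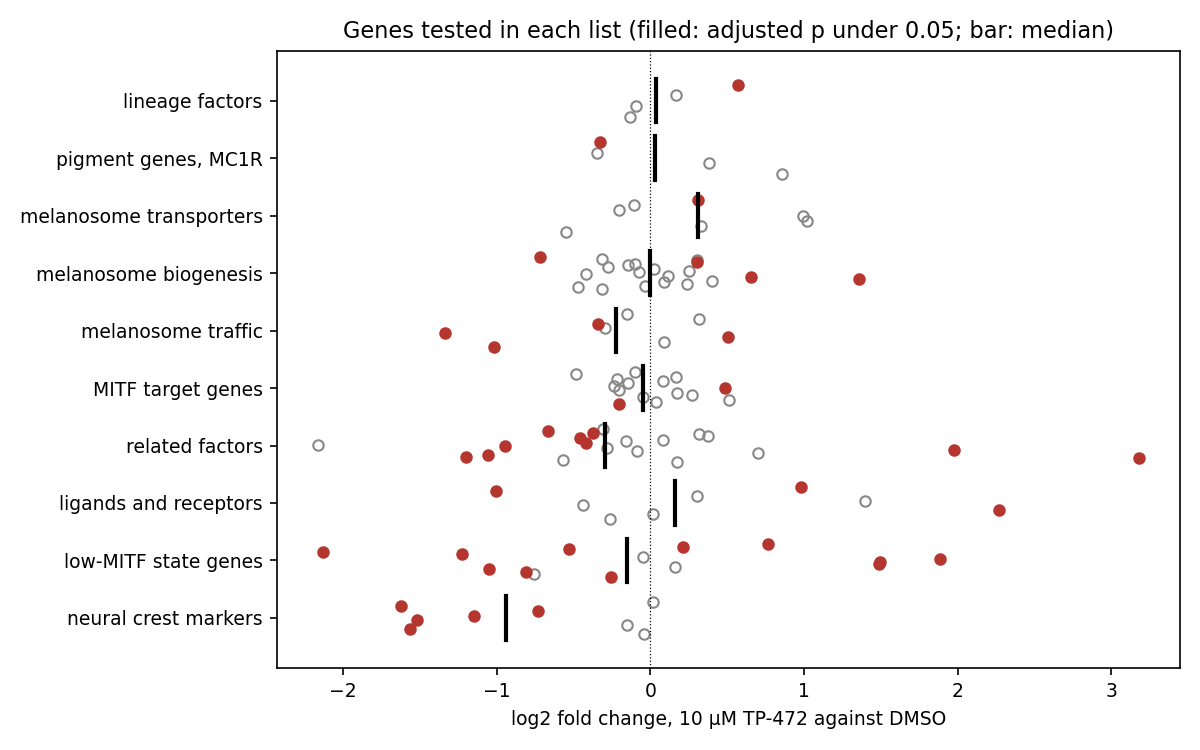
Log2 fold change at 10 µM against DMSO of every gene tested in the 10 lists, with 1 point per gene, filled where the adjusted p was under 0.05, and a bar at the median of each list. The neural crest markers lie furthest to the left with a median of -0.94, and the low-MITF state genes spread on both sides of 0.

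Markers of neural crest derived lines were examined as well. They were not compared with another line, so that their detection is no test of the label of the cells. The 8 markers, among them VIM, CSPG4, CD63, NES, MIA, S100B and S100A1, were all detected in DMSO. They summed to 5200.25 to 5300.51 CPM, in libraries that had 0 counts of TYR and DCT and 11 to 22 of TYRP1. Most of this sum was VIM, with a mean of 3720 CPM in DMSO and 2241 CPM at 10 µM. S100B and S100A1 had DMSO means of 7.09 and 3.11 CPM. At 10 µM, 5 of the 8 fell and none rose, with a summed level of 2853.25 to 3507.81 CPM, and at 5 µM 4 fell, where 5.81% of all genes did. CSPG4, the melanoma proteoglycan, fell by 1.62 at 10 µM (SE 0.13, adjusted p = 1.76e-05). The intermediate filament genes NES and VIM fell by 1.15 and 0.73 (adjusted p = 7.87e-06 and 0.000142), and S100A1 fell by 1.56 (adjusted p = 0.0129). S100B, MIA and CD63 did not pass (adjusted p = 0.900, 0.570 and 0.939). Without replicate 1 at 10 µM, 7 of the 8 fell, the added ones being MIA and CD63 (adjusted p = 0.000212 and 0.000161), where 25.8% of all genes fell.

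Markers of other cell types were examined in the same way. Of the leukocyte markers CD3E was at 0 in every library, PTPRC had group means of 0.0280 to 0.211 CPM, and CD68, a lysosomal protein whose exons overlap other genes over 81.7% of their length, rose by 0.91 at 10 µM (adjusted p = 0.000549). The list summed to 59.3 to 64.9 CPM in DMSO and 91.9 to 136 CPM at 10 µM. Among keratinocyte markers 1 of 3 tested rose (KRT10, log2 0.66, adjusted p = 0.00446), with a summed 49.5 to 56.9 CPM in DMSO and 67.2 to 98.0 CPM at 10 µM. Among fibroblast markers 2 of 4 tested fell, PRRX1 by 2.55 and PDGFRA by 1.76 (adjusted p = 8.11e-06 and 0.00118), with a summed 72.9 to 77.9 CPM in DMSO and 13.9 to 18.9 CPM at 10 µM. Among endothelial markers 1 of 5 rose (KDR, log2 2.50, adjusted p = 0.000287), with a summed 4.37 to 6.05 CPM in DMSO and 11.0 to 16.7 CPM at 10 µM. The leukocyte, keratinocyte and fibroblast sums were each mostly 1 gene, with DMSO means of 55.8 CPM for CD68, 44.4 CPM for KRT10 and 68.4 CPM for PRRX1. The changes of these sums thus mainly repeat those of the single genes and do not describe a cell type. Whether the marker genes had a part in the values of the 10 lineage genes was not tested.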

How the data were processed

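Total RNA of 9 A375 cultures was sequenced on an Illumina instrument with strand-specific libraries. The methods and labels describe oligo-dT selection and the design text describes depletion of ribosomal RNA; which was used is unsettled. The authors deposited expected counts per gene symbol, unscaled. The submitters' processing notes name RSEM 1.2.15, Bowtie2 2.1.0 and hg38. The annotation and any use of strand in counting were not given in the sources used here. Between 10.6% and 13.8% of the values per library were not whole, and all were rounded.

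Counts were tested in 1 fit of the 3 groups of 3 with edgeR 4.0.16 (R 4.3.3), TMM factors, filterByExpr at its defaults (16417 genes kept) and quasi-likelihood F tests. P-values were adjusted over these genes by the Benjamini-Hochberg method. Standard errors were obtained by dividing each absolute log2 fold change by the root of its F statistic, and 95% intervals use the same degrees of freedom as the test. Leaving out genes of low counts, a log2 scale and TMM can each alter the values, and the alternatives were other scalings and filters, DESeq2 1.42.0, limma-voom (limma 3.58.1), a replicate block, a likelihood ratio test, leaving out single libraries, fits of 2 groups and other thresholds. The sum of TFAP2A with its antisense gene and a table without ribosomal RNA genes were added after seeing the data. The fit was also run on simulated counts with changes larger than those of TFAP2A and MC1R. That run is no test of changes as small as theirs. Tables used Python 3.11.15, pandas 2.3.3, numpy 2.4.6 and scipy 1.17.1.

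The 10 genes and the 12 lists were chosen with earlier results of these data known. All 10 genes are named, and in each list up to 4 genes with the largest change at 10 µM among those with an adjusted p under 0.05 and a mean of at least 1 CPM, plus genes said to be named afterwards and genes named for their role that did not pass. Results for 3 list genes are not reported here by name. Coordinates and lengths are from GENCODE release 29 on GRCh38. Floors cover counting error only, whereas the 95% intervals include the variation between libraries.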

Additional observations from a re-analysis of the deposited data

How the results depend on the processing

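The count of the 8 genes that passed at 10 µM against DMSO was 2. It was 1 with upper-quartile factors, with at least 1 CPM in 3 libraries, with the replicate block, with only the 2 groups compared and at an adjusted p under 0.01, and 0 where a fold change of 1.5 or more was asked for. At 5 µM the count of 0 became 1 with only the 2 groups compared, a fit in which 19.3% of all genes rose and 20.7% fell. Between the doses the count of 1 became 0 without a filter on low counts, with the replicate block, with only the 2 groups compared, where a fold change of 1.5 or more was asked for and at an adjusted p under 0.01. Leaving out each library in turn gave counts of 0 to 1 at 5 µM, 1 to 3 at 10 µM and 0 to 3 between the doses. The counts of 3 (SOX10, TFAP2A and MC1R) and the count of 1 at 5 µM (TFAP2A) came when replicate 1 at 10 µM was left out. In that fit 16.5% of all genes tested rose and 17.6% fell at 5 µM, beside 23% and 25.8% at 10 µM. Between the doses these shares were 8.8% and 15.4%. TFAP2A at 10 µM passed in every alternative fit and at an adjusted p under 0.01, but not where a fold change of 1.5 or more was asked for.

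The labels do not say whether replicate numbers mark paired samples. Deviations of same-numbered libraries correlated at -0.049 to 0.032, and those of differently numbered ones at -0.033 to 0.045. No shared effect was thus seen, but such values cannot tell whether the samples were paired. The block turned only 1 direction, MLANA at 5 µM (log2 0.0595 against -0.07). Leaving out single libraries turned the direction of genes that did not pass. Log2 fold changes then ranged from -0.0346 to 0.0015 for SOX10, -0.0261 to 0.18 for PAX3, -0.35 to 0.42 for TYRP1 and -0.31 to 0.17 for MLANA at 5 µM, from -0.0201 to 0.56 for PMEL and -2.45 to 0.22 for MLANA at 10 µM, and from -0.22 to 0.10 for MITF, -0.48 to 0.19 for PMEL and -2.38 to 0.29 for MLANA between the doses. The cause was not tested. Without ribosomal RNA genes no call among the 8 genes changed. TYRP1 and MLANA have under 50 counts per library, which limits what could be detected, and the filter of 1 CPM left no value for them.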
